A study of Mus musculus with 10 samples.

Results

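Genes of the early secretory pathway were examined in RNA sequencing of 10 libraries of pancreatic epithelium from wild-type mice with caerulein-induced pancreatitis. The members were the listed genes whose symbols name subunits of the COPI and COPII vesicle coats, or Sar1 and Arf GTPases with their GTPase-activating proteins. They also took in p24 (Tmed), lectin-type and KDEL cargo receptors, Surf4, Sec16 and Sec22 proteins, golgins, GRASP proteins and TRAPP subunits. A rule on the names chose them, written with earlier results of these data known, and gave 74 of the 12160 listed genes. In all, 5 libraries held tuft cells, a rare chemosensory epithelial cell, sorted as Cd45-negative, EpCAM-positive and Siglec F-positive, and 5 held non-tuft epithelial cells from the Siglec F-negative gate. The sample records give male CD1 mice in the protocol and a mixed strain in another field, and no difference in genotype or treatment between the groups; age is not given in the sources used here. Each tuft library came from 100 cells of an individual mouse, and the non-tuft libraries held as many cells, so that both populations came from the same 5 mice. Values are log2(RPKM + 1) after quantile normalization, where RPKM scales reads to transcript length and to mapped reads, so levels can be set side by side between genes.

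Proteins made for secretion or for membranes leave the endoplasmic reticulum (ER) in vesicles with a COPII coat, which the GTPase Sar1 recruits and in which Sec23 and Sec24 form the inner layer and Sec13 and Sec31 the outer cage. COPI vesicles, built on Arf1 from a complex of coatomer subunits, carry escaped ER residents and cargo receptors back from the Golgi, and KDEL receptors return chaperones by this route. Golgins, GRASP proteins and TRAPP complexes tether vesicles and hold the Golgi stack together. Acinar cells of the pancreas, which make digestive enzymes, are known for one of the heaviest secretory loads in the body.

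The non-tuft libraries carried acinar RNA, with islet RNA at widely differing levels, and the tuft libraries carried tuft RNA. All 8 tuft markers were called higher in tuft cells. The acinar list held 9 markers, of which 6 were called lower and 0 higher, and their summed level ran from 58703 to 83030 RPKM in the non-tuft libraries and from 620 to 63575 RPKM in the tuft libraries. Tuft library 4, at 63575, lay inside the non-tuft range, with 81.0% of its sum from the protease gene Ctrb1, while 6 of its 9 acinar markers lay below every non-tuft value; in the other tuft libraries 8 or 9 did. None of the 5 ductal and 4 stromal markers was called, and 2 of 6 islet markers were called lower. The summed islet level ran from 2.36 to 20637 RPKM in the non-tuft libraries and from 0.48 to 30.1 RPKM in the tuft libraries. Of 3 leukocyte markers Ptprc was called higher, as were 2 of 4 general epithelial markers. The acinar transcription factor Ptf1a was listed at 0 in 3 tuft libraries, at 0.53 and 0.62 in the other tuft libraries, and between 4.03 and 5.17 in the non-tuft libraries. The share of each cell type behind these values was not measured, and in such bulk libraries fewer cells of a type and less RNA per cell cannot be told apart. The file gives no read counts, so depth is unknown and no counting interval is given; between 1442 and 3753 genes of a library stood at its lowest value, which was 0.17 in non-tuft library 2 and 0 elsewhere.

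The traffic genes were abundant as a group. In all, 67 of the 74 (90.5%) had a mean level above the median of all listed genes, and 61 (82.4%) stood above the lowest value in every library, against 50.2% of all genes. Their median percentile of mean level was 80.9. The most abundant was Kdelr2, a KDEL receptor, which ranged from 7.25 to 8.23 in tuft cells and from 7.73 to 8.75 in non-tuft epithelial cells. Copz1, the common zeta subunit of coatomer, followed with 6.39 to 8.62 and 7.36 to 8.32. These ranges overlapped for both genes. Within a group the members' median SD was 0.56 in tuft cells and 0.61 in non-tuft epithelial cells, and the median over all genes was 0.71 and 0.90.

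Most of the machinery did not pass the test, and the few genes that did were lower in tuft cells. Of the 74 genes, 6 (8.11%) were called lower and 0 higher. A call needed an adjusted p under 0.05 together with more than a 4-fold difference in limma's moderated test, with Benjamini-Hochberg adjustment over all listed genes. The background for these calls was 3.99% of all genes lower and 4.32% higher. At an adjusted p alone, 7 members (9.46%) were lower and 0 higher, with a background of 5.55% and 6.19%, and at an unadjusted p under 0.05 there were 16 lower and 4 higher, with a background of 12.2% and 12.9%. The 7 genes were Copz2, Lman1, Tmed6, Sec24d, Sec16b, Gorasp1 and Tmed11, and Gorasp1 missed the fold threshold. Tmed11 was listed at 0 in all 5 tuft libraries, so its call rests on the non-tuft values alone. With the lowest value of every library set to 0, 5 members were called lower and 0 higher. In a fit limited to genes with a mean log2 of at least 2, 5 of 70 members were called lower and 0 higher. Of all 7270 genes in that fit, 344 were called lower and 421 higher. Under another scaling, in which each library was centred on its 80 listed ribosomal protein genes, the median of all genes moved up by 0.80 in tuft cells. At an adjusted p under 0.05, 5 members were then lower and 9 higher, with a background of 2.41% of all genes lower and 18.4% higher. With the fold threshold, 3 were lower and 2 higher, with a background of 1.85% and 10.6%. Copz2, Lman1, Tmed6, Sec24d and Sec16b were the 5 lower ones. The median log2 fold change of the members lay 0.26 below that of all genes. This centring moves every gene by the same amount, so it cannot change that distance.

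**Figure D1:**
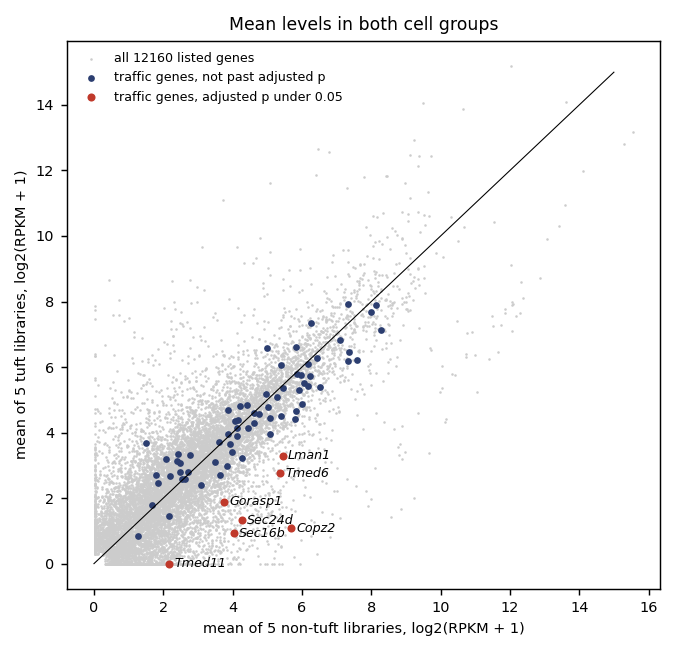
Mean level of each gene over the 5 non-tuft libraries (horizontal axis) and the 5 tuft libraries (vertical axis), both as normalized log2(RPKM + 1), with all 12160 listed genes in grey and the line of equal levels in black. Most of the 74 traffic genes lie near the line, while the 7 red genes past an adjusted p under 0.05 lie below it.

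Within the COPI coat, the largest change among all members was that of Copz2, which encodes the minor form of the zeta subunit. It was at 1.47, 0.76, 2.33, 0 and 0.82 in tuft libraries 1 to 5 and at 5.68, 6.11, 5.14, 6.16 and 5.29 in non-tuft libraries 1 to 5. The lowest non-tuft value therefore stood well above the highest tuft value. The difference in limma was -4.60 on the log2 scale (SE 0.47, adjusted p = 5.35e-05), or 24.3-fold lower on this scale, and its adjusted p stayed at or below 0.00244 under every alternative fit. Copz2 lies on chromosome 11 from 96711184 to 96722517 (NCBIM37, also called mm9), and the microRNA gene Mir152 lies within it on the same strand.

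The other coatomer genes did not pass the test. All 8 COPI subunits among the members had a lower mean in tuft cells, with a median log2 fold change of -0.47, which became 0.33 with ribosomal centring. Copa, the alpha subunit, was at 4.10 to 5.29 in tuft cells and 5.55 to 6.04 in non-tuft epithelial cells, without overlap, and differed by -1.17 on the log2 scale (limma, adjusted p = 0.0560). Copb2, the beta-prime subunit, had a log2 fold change of -1.15 with an adjusted p of 0.0988 (limma), and the groups met because tuft library 1 was at 7.11 and non-tuft library 2 at 6.99. The remaining subunits, Copb1, Cope, Copg1, Copg2 and Copz1, had adjusted p from 0.360 to 0.913. Arcn1, the delta subunit, whose name the rule did not cover, was at a mean of 4.47 in tuft cells and 5.09 in non-tuft epithelial cells (adjusted p = 0.310, limma). Copa overlaps Ncstn on the opposite strand, and reads from such overlaps cannot be assigned where strand is not recorded.

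Among COPII genes, the change sat in Sec24d and in the exit-site scaffold Sec16b. Sec24d, a Sec24 isoform that selects cargo, was at 2.79, 1.59, 2.06, 0 and 0.16 in tuft libraries 1 to 5. In non-tuft libraries 1 to 5 it was at 4.05, 4.09, 4.55, 3.83 and 4.77. These groups did not overlap, and the difference in limma was -2.94 on the log2 scale (SE 0.55, adjusted p = 0.00365), or 7.66-fold lower. The gene (chromosome 3, 122970414 to 123068553) overlaps Mettl14 on the opposite strand, which was at a mean of 1.47 in tuft cells and 1.61 in non-tuft epithelial cells.

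Sec16b, the shorter Sec16 protein of ER exit sites, was at 3.31, 0, 0.14, 0 and 1.16 in tuft libraries 1 to 5 and at 2.96, 4.56, 5.19, 3.22 and 4.27 in non-tuft libraries 1 to 5. Tuft library 1 alone reached the non-tuft range. The difference in limma was -3.12 on the log2 scale (SE 0.68, adjusted p = 0.00848), on chromosome 1 from 159436859 to 159498556. The partner forms gave other values, with log2 fold changes of -0.87 for Sec16a (adjusted p = 0.390), -0.69 for Sec24a (adjusted p = 0.311), -0.39 for Sec24c (adjusted p = 0.688) and 0.54 for Sec24b (adjusted p = 0.470), all from limma.

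The COPII cage genes Sec13 and Sec31a had all tuft values below all non-tuft values but did not pass the adjusted threshold. Sec13 was at 3.25 to 5.12 in tuft cells and 5.40 to 6.13 in non-tuft epithelial cells (log2 fold change -1.39, adjusted p = 0.0711, limma). Sec31a was at 4.39 to 5.25 and 5.72 to 6.50 (log2 fold change -1.13, adjusted p = 0.0597, limma). For the GTPase genes Sar1a and Sar1b the log2 fold changes were -0.54 and 0.44 with adjusted p of 0.439 and 0.549 (limma). Sec23a and Sec23b, which encode GTPase-activating proteins of Sar1, had adjusted p of 0.424 and 0.766, and Sec23ip, a Sec23 partner, one of 0.320.

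**Figure D2:**
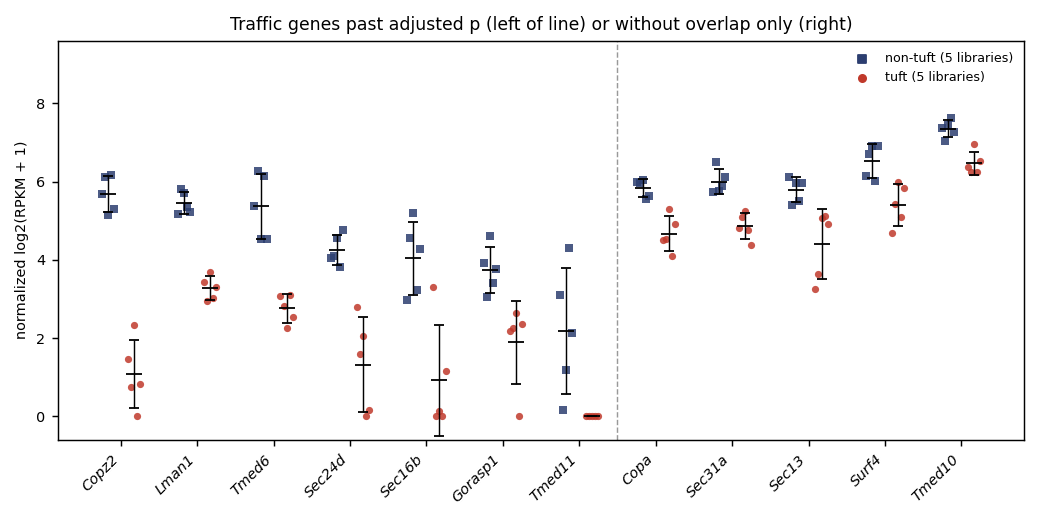
Normalized log2(RPKM + 1) of 12 traffic genes in each library, with non-tuft libraries as squares and tuft libraries as circles; bars give the mean and SD of 5 libraries. Left of the dashed line are the 7 genes past an adjusted p under 0.05, and right of it the 5 further genes whose groups did not overlap, where the tuft circles lie below all squares but closer to them.

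The cargo receptors showed the same contrast between a few genes that passed the test and many that did not. Lman1 (ERGIC-53), a lectin that carries glycoproteins out of the ER, was at 3.44, 2.95, 3.69, 3.01 and 3.31 in tuft libraries 1 to 5 and at 5.16, 5.81, 5.70, 5.36 and 5.23 in non-tuft libraries 1 to 5. The libraries of each group lay close together and the groups were well apart. The difference in limma was -2.17 on the log2 scale (SE 0.35, adjusted p = 0.00140), on chromosome 18 from 66140408 to 66182234. Lman2 and Lman2l, related lectins, had log2 fold changes of -0.21 (adjusted p = 0.783) and 0.73 (adjusted p = 0.417) in limma. Surf4, a receptor for soluble cargo, was at 4.69 to 5.99 in tuft cells and 6.01 to 6.92 in non-tuft epithelial cells, without overlap, at an adjusted p of 0.0924 (limma). The gene overlaps Surf2 on the opposite strand, which was also lower in tuft cells. Surf2 was at a mean of 2.33 in tuft cells and 3.71 in non-tuft epithelial cells (adjusted p = 0.152, limma).

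In the p24 family, which packages cargo between the ER and the Golgi, Tmed6 and Tmed11 passed the test. Tmed6 was at 3.08, 2.81, 2.25, 3.10 and 2.55 in tuft libraries 1 to 5 and at 5.36, 6.27, 4.52, 6.13 and 4.53 in non-tuft libraries 1 to 5. No tuft library reached a non-tuft value, and the difference in limma was -2.61 on the log2 scale (SE 0.45, adjusted p = 0.00228), on chromosome 8 from 109585384 to 109589544. Tmed11 was listed at 0 in all 5 tuft libraries and at 3.10, 0.17, 1.18, 4.30 and 2.13 in non-tuft libraries 1 to 5, where 0.17 is the lowest value of non-tuft library 2. Since a whole group is listed at 0, no fold change is given. Its adjusted p was 0.0457 (limma), became 0.0552 when the lowest value of every library was set to 0, was 0.0548 with the replicate block, and ranged from 0.0109 to 0.105 when single libraries were left out.

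The abundant p24 genes did not pass. Tmed10 was at 6.24 to 6.95 in tuft cells and 7.03 to 7.63 in non-tuft epithelial cells, without overlap (log2 fold change -0.89, adjusted p = 0.125, limma). Its usual partner Tmed2 differed by -1.39 on the log2 scale (limma, adjusted p = 0.0814, or 0.0451 with the replicate block). For Tmed1, Tmed3, Tmed4, Tmed5, Tmed7, Tmed8 and Tmed9 the adjusted p lay between 0.383 and 0.949. Over the 10 p24 genes other than Tmed11 the median log2 fold change was -0.54, which became 0.26 with ribosomal centring.

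The KDEL receptors had log2 fold changes of -0.25 for Kdelr2, -0.75 for Kdelr1 and -1.12 for Kdelr3, with adjusted p of 0.741, 0.281 and 0.129 (limma). Kdelr3 was at 3.46 to 4.60 in tuft cells and 4.14 to 6.20 in non-tuft epithelial cells. Its groups overlapped because non-tuft library 2 lay at 4.14, below the highest tuft value.

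Among golgins and GRASP proteins, Gorasp1 (GRASP65), which links the cisternae of the Golgi, passed the test alone. It was at 2.18, 2.27, 2.63, 0 and 2.35 in tuft libraries 1 to 5 and at 3.91, 3.05, 4.60, 3.40 and 3.77 in non-tuft libraries 1 to 5. The groups did not overlap, and the difference in limma was -1.86 on the log2 scale (SE 0.53, adjusted p = 0.0377). The adjusted p passed 0.05 in 8 of the 10 fits that left out a library, reaching 0.0862, and stayed under it without non-tuft library 2 or tuft library 3. The golgins Golga1 to Golga5, Golga7 and Golgb1 and the GRASP gene Gorasp2 had adjusted p from 0.334 to 0.947. Gorasp1 (chromosome 9, 119834791 to 119846676) overlaps Wdr48 on the opposite strand, at a mean of 3.59 in tuft cells and 3.50 in non-tuft epithelial cells.

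TRAPP genes, which encode the tether and activator of Rab1, were the one large class with higher means in tuft cells, although none passed the threshold in the fit without a replicate block. Of 14 listed subunits, 12 had a higher mean, and 4 of them an unadjusted p under 0.05. The class median log2 fold change was 0.81, and 1.61 with ribosomal centring. Trappc2l was at 5.61 to 7.77 in tuft cells and 4.11 to 5.96 in non-tuft epithelial cells (log2 fold change 1.59, adjusted p = 0.0700, limma). With the replicate number as a block it passed, at an adjusted p of 0.0238 (limma), and over all alternatives other than treat the adjusted p ran from 0.00537 to 0.156. Trappc2, the subunit affected in a skeletal dysplasia, was at 1.17, 3.82, 4.71, 4.12 and 4.53 in tuft libraries 1 to 5 and between 0 and 3.03 in the non-tuft libraries. Its log2 fold change of 2.18 had an adjusted p of 0.0936 (limma), which fell to 0.0221 without tuft library 1. Trappc6a and Trappc6b, alternative forms of one subunit, had log2 fold changes of 0.93 and 1.11 with adjusted p of 0.193 and 0.146 (limma). With ribosomal centring, which moved all genes up and put 18.4% of them past an adjusted p under 0.05 as higher, 7 TRAPP genes passed, with Sec22a and Sec24b the other higher members.

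Arf GTPases and their GTPase-activating proteins had no call in either direction. Arf4 was at 6.26 to 7.95 in tuft cells and 7.59 to 8.77 in non-tuft epithelial cells (log2 fold change -1.15, adjusted p = 0.132, limma). Arf1, the main recruiter of coatomer, gave an adjusted p of 0.729. The remaining Arf and Arfgap genes had adjusted p from 0.306 to 0.985, and the Sec22 family of vesicle SNAREs had adjusted p from 0.374 to 0.980.

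**Figure D3:**
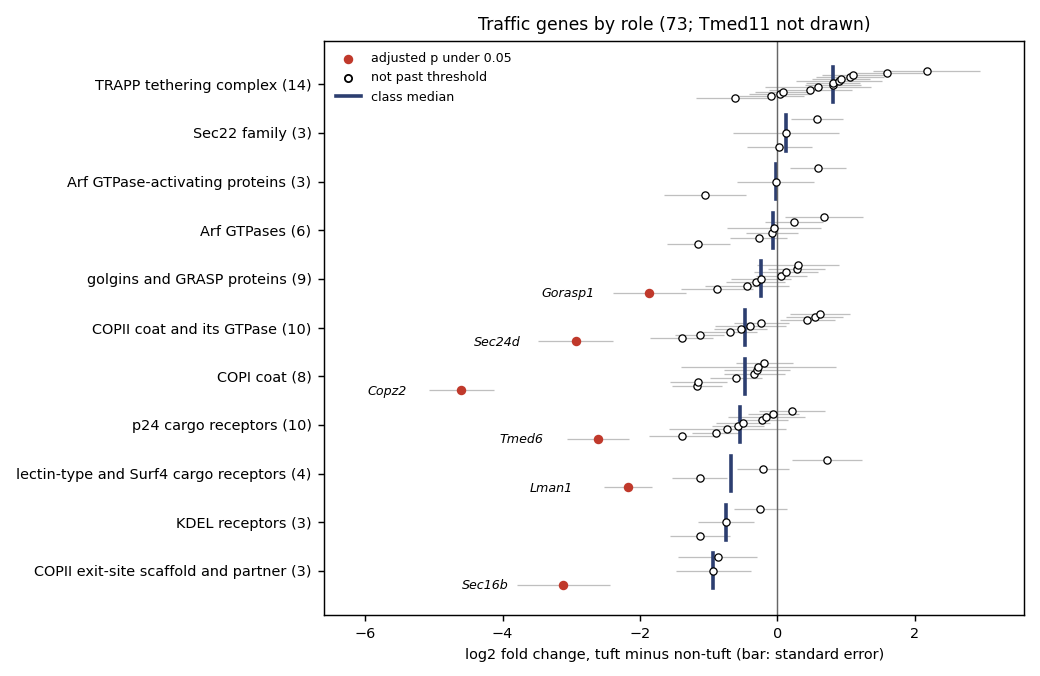
Log2 fold change of 73 traffic genes (horizontal axis, tuft minus non-tuft, bars are standard errors) grouped by role (vertical axis, with the number of genes), where Tmed11 is left out because it is listed at 0 in all tuft libraries. Filled red points passed an adjusted p under 0.05, and blue lines mark class medians, which run from -0.93 for the exit-site class to 0.81 for TRAPP; with ribosomal centring all points move right by 0.80, so that the exit-site class has the only median below 0.

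Counting genes whose groups did not overlap gave 10 members lower in tuft cells (13.5%) and 0 higher, against 4.84% and 6.32% of all genes. These shares are not matched for level. A gene at the lowest value in libraries of both groups cannot be without overlap. Above that value in every library were 82.4% of the members and 50.2% of all genes. They were Copz2, Copa, Sec24d, Sec13, Sec31a, Lman1, Surf4, Tmed6, Tmed10 and Gorasp1. Groups that do not overlap always give p = 0.00794 in the exact two-sided permutation test, the smallest that 252 splits allow. That p therefore adds nothing to the choice of these genes. With ribosomal centring 4 members were lower and 7 higher without overlap, against 1.73% and 16.7% of all genes. Without non-tuft library 2 the count was 15 lower and 1 higher, against 6.04% and 7.48% of all genes.

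Over all members, the median of the 74 values in a library was 4.26 ± 0.29 (SD, n = 5) in tuft cells and 4.67 ± 0.09 (SD, n = 5) in non-tuft epithelial cells. The tuft medians ran from 3.87 in library 1 to 4.59 in library 3, and the non-tuft medians from 4.58 to 4.79. These groups touched, since tuft library 3 was just above the lowest non-tuft library. Among the 11 classes, the library medians did not overlap for the COPI coat, at 4.52 to 5.30 in tuft cells and 5.47 to 6.04 in non-tuft epithelial cells, and for the lectins with Surf4, at 3.83 to 4.42 and 4.77 to 5.38.

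Acinar markers differed between the same groups of libraries. Of the 9, 6 were called lower in tuft cells, with the summed levels given above. Tuft library 4, which had the highest acinar sum of the tuft libraries, had Copz2, Sec24d, Sec16b and Gorasp1 at 0, Lman1 at 3.01 and, for Tmed6, the highest tuft value, 3.10. Tuft library 5, with the lowest sum, had Copz2, Sec24d, Sec16b and Gorasp1 at 0.82, 0.16, 1.16 and 2.35, Lman1 at 3.31 and Tmed6 at 2.55. Between them, tuft libraries 1, 2 and 3 had sums of 20519, 14913 and 6705 RPKM. In that order, Copz2 was at 1.47, 0.76 and 2.33, Sec24d at 2.79, 1.59 and 2.06, and Sec16b at 3.31, 0 and 0.14. Gorasp1 was at 2.18, 2.27 and 2.63 there, Lman1 at 3.44, 2.95 and 3.69, and Tmed6 at 3.08, 2.81 and 2.25. The part of acinar or islet RNA in the differences between the groups was not tested. Without tuft library 4, the same 5 genes that kept an adjusted p under 0.05 with ribosomal centring were the members that passed.

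Many coat and receptor genes exist as paralogs, and the difference of their log2(RPKM + 1) values within a library, called the log2 ratio here, does not move when a constant is added to all log2 values of that library. It does depend on the value added to RPKM. For 22 pairs with both genes listed, the log2 ratio was compared between the groups by an exact two-sided permutation test, with Benjamini-Hochberg adjustment over the 22. In all, 5 pairs passed, each at an exact p = 0.00794, the smallest that the design allowed, and an adjusted p of 0.0349. The Copz1 to Copz2 log2 ratio was 4.92 to 7.80 in tuft cells and 1.19 to 3.09 in non-tuft epithelial cells, a difference of 4.31 (95% interval 2.69 to 5.85, from inverting the exact test). As a share of both genes' RPKM, Copz2 made up 0 to 2.09% in tuft cells and 10.3% to 30.3% in non-tuft epithelial cells.

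The Sec24 set was also arranged differently. The log2 ratio of Sec24a to Sec24d was -0.06 to 2.55 in tuft cells and -1.31 to -0.87 in non-tuft epithelial cells (difference 2.25, interval 1.11 to 3.79, exact p = 0.00794). Sec24c to Sec24d differed by 2.55 (interval 1.13 to 3.85, exact p = 0.00794). Of the summed RPKM of the 4 Sec24 genes, Sec24d held 31.2% to 52.5% in non-tuft epithelial cells and 0 to 22.3% in tuft cells, where Sec24b held 26.7% to 48.1%. In non-tuft epithelial cells Sec24d was the most abundant of the 4 in 4 libraries, and in non-tuft library 2 it stood below Sec24c.

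The remaining pairs that passed were Gorasp1 to Gorasp2, which differed by -1.62 (interval -2.70 to -0.50, exact p = 0.00794) but by -0.58 with 10 added to RPKM (adjusted p = 0.192, exact test), and Arf4 to Arf5, which differed by -1.39 (interval -2.09 to -0.69, exact p = 0.00794). Sec16a to Sec16b differed by 2.25 (interval 0.27 to 4.59) with an adjusted p of 0.150 from the exact test, and Kdelr2 to Kdelr3 by 0.88 (interval 0.06 to 1.66) with one of 0.146. For Tmed2 to Tmed10, partners in one complex, the difference was -0.50 (interval -1.50 to 0.48), and for Kdelr1 to Kdelr2 it was -0.50 (interval -1.48 to 0.46). These last intervals include both no difference and differences of more than 1 on the log2 scale.

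**Figure D4:**
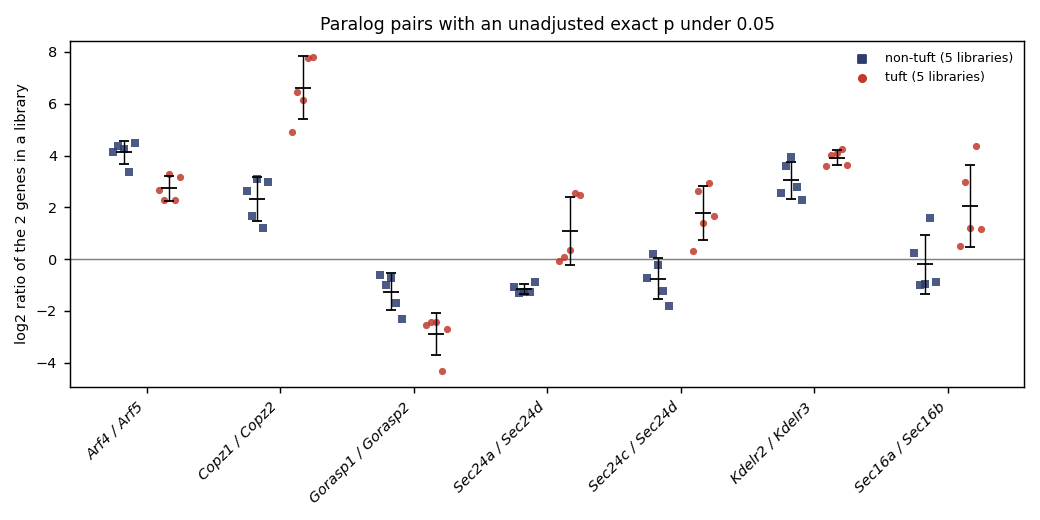
Log2 ratio of the 2 genes of a pair in each library (vertical axis) for the 7 pairs with an unadjusted exact p under 0.05, with non-tuft libraries as squares, tuft libraries as circles, and the mean and SD of 5 libraries as bars. The first 5 pairs passed the adjusted threshold and their groups do not overlap, with the widest gap for Copz1 to Copz2.

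Several of these genes are known targets of the unfolded protein response, in which XBP1, ATF6 and related factors bind ACGT-containing promoter elements. RefSeq promoters of 300 bases (250 before to 50 after the start, build GRCm38.p6) were matched for 61 of the 74 genes and searched on both strands. TGACGTGG, the unfolded protein response element, was found in 7 of the 61 (11.5%), against 1.03% of the 9112 listed genes and 0.714% of all 27025 genes with a promoter. The 7 were Arf1, Copb1, Copb2, Kdelr3, Sec16b, Sec23a and Sec24d. GACGTG, the core that TGACGTGG contains, was found in 31.1% of the members and 10.8% of the listed genes. The longer ER stress elements ERSE and ERSE-II were found in 0 of the members and in 0.165% and 0.0878% of the listed genes.

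The sequences below are the stretches around these letters that lie before the start, for the called genes Sec24d and Sec16b, for Kdelr3 and Copb1, which were not called, and for Copz2, the gene that changed most. Each is written 5′ to 3′ along the strand of the gene. Capitals mark TGACGTGG or its reverse complement, and in Copz2 the core GACGTG.
Sec24d: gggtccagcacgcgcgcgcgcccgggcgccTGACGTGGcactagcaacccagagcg
Sec16b: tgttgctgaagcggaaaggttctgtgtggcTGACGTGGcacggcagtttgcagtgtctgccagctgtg
Kdelr3: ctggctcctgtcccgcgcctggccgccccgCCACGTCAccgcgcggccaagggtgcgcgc
Copb1: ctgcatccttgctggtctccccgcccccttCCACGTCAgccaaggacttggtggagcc
Copz2: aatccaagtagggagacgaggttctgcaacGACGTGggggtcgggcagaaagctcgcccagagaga
The Sec24d stretch is at chr3:123267440-123267495 (plus strand), Sec16b at chr1:157506722-157506789 (plus), Kdelr3 at chr15:79516348-79516407 (plus), Copb1 at chr7:114254681-114254738 (minus) and Copz2 at chr11:96849725-96849790 (plus), all in GRCm38.p6. The motif starts 26 bases before the start in Sec24d and 44 in Sec16b, and both promoters share the run CTGACGTGGCAC of 12 bases. In Kdelr3 and Copb1 it starts 30 and 28 bases before the start.

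Motif and change did not coincide gene by gene. Of the 7 members with TGACGTGG, 2 were called lower, and the log2 fold changes ran from -3.12 for Sec16b to 0.62 for Sec23a. TGACGTGG was not found in the promoters of Copz2, Tmed6 and Gorasp1, and Lman1 and Tmed11 had no matched promoter. The core GACGTG, printed above for Copz2, was also found in the promoter of Copz1, which was not called. Among all 94 listed genes with the motif, 7 (7.45%) were called lower, against 3.96% of the listed genes with a promoter. Sec24d and Sec16b are among these 7. For the core GACGTG, 38 of 985 listed genes (3.86%) were called lower, against the same 3.96%. These matches describe letters in a window and were not tested.

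Other genes of the pathway came from a separate list of 73 symbols, of which 71 were listed. At an adjusted p under 0.05 6 were lower and 4 higher, and with the fold threshold 1 was lower (1.41%, against 3.99% of all genes) and 3 higher (4.23%, against 4.32%). Mcfd2, the soluble partner of Lman1 in carrying coagulation factors, was at 4.65, 2.75, 4.26, 4.37 and 5.75 in tuft libraries 1 to 5 and between 6.19 and 6.72 in the non-tuft libraries. The groups did not overlap, and Mcfd2 was the gene called lower (log2 fold change -2.05, standard error 0.50, adjusted p = 0.0167, limma; 0.129 with ribosomal centring).

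The other lower genes at an adjusted p under 0.05 belonged to fusion, recycling and control. Bet1, a SNARE of the ER to Golgi step, had a log2 fold change of -1.54 (adjusted p = 0.0176) and Ergic2, a receptor of the intermediate compartment, one of -1.67 (adjusted p = 0.0232), both from limma. Arfgef3, a gene of the Arf exchange factor family, was listed at 0 in 4 tuft libraries and between 1.20 and 3.73 in the non-tuft libraries (adjusted p = 0.0189, limma). Creb3l1, an ER-anchored transcription factor of secretory genes, differed by -1.39 on the log2 scale (limma, adjusted p = 0.0437). None of these passed an adjusted p under 0.05 with ribosomal centring, and Ergic2 and Creb3l1 also missed it with single libraries left out, at an adjusted p of up to 0.0626 and 0.0921. With the replicate block Creb3l1 had an adjusted p of 0.0688 (limma).

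Genes higher in tuft cells were Cideb, Yipf1, Golt1a and Mia2. Cideb, a lipid droplet protein that also takes part in COPII export of lipoproteins, was at 5.68, 7.02, 6.01, 6.71 and 5.96 in tuft libraries 1 to 5. In non-tuft libraries 1 to 5 it was at 0, 0.17, 2.82, 0 and 2.50. Every tuft library was far above every non-tuft library (log2 fold change 5.18, standard error 0.63, adjusted p = 1.78e-04, limma). Yipf1, a Golgi membrane protein, was at 6.15 to 6.55 in tuft cells and 2.11 to 4.14 in non-tuft epithelial cells (log2 fold change 2.91, adjusted p = 0.00105, limma).

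Golt1a and Golt1b, mammalian relatives of the yeast Golgi protein Got1, went in opposite directions. Golt1a was at 3.81 to 4.64 in tuft cells and 0.17 to 2.63 in non-tuft epithelial cells (log2 fold change 2.67, adjusted p = 0.00368, limma). Golt1b was at 1.19 to 3.21 and 3.48 to 4.41 (log2 fold change -1.52, adjusted p = 0.0407, limma), which did not pass with ribosomal centring (adjusted p = 0.377), with the replicate block (adjusted p = 0.0510) or in 7 of the 10 fits that left out a library. Mia2 differed by 1.72 on the log2 scale (limma, adjusted p = 0.0239). It was low in both groups, at a mean of 2.07 in tuft cells and 0.35 in non-tuft epithelial cells. For Mia3 (TANGO1), an exit-site receptor gene, the difference was -1.04 on this scale (adjusted p = 0.128, limma). For the entry listed as Ctage5 it was -0.23 (adjusted p = 0.817, limma). Whether Mia2 and Ctage5 are entries of the same locus was not examined, so the higher level holds for the entry listed as Mia2 only. Ctage5 was more abundant than Mia2, at a mean of 4.90 in tuft cells and 5.13 in non-tuft epithelial cells. Mia2 missed the adjusted threshold without tuft library 1, 2 or 3 or non-tuft library 3 (up to 0.0629), with the replicate block (0.0519) and with 10 added to RPKM (0.0951).

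**Figure D5:**
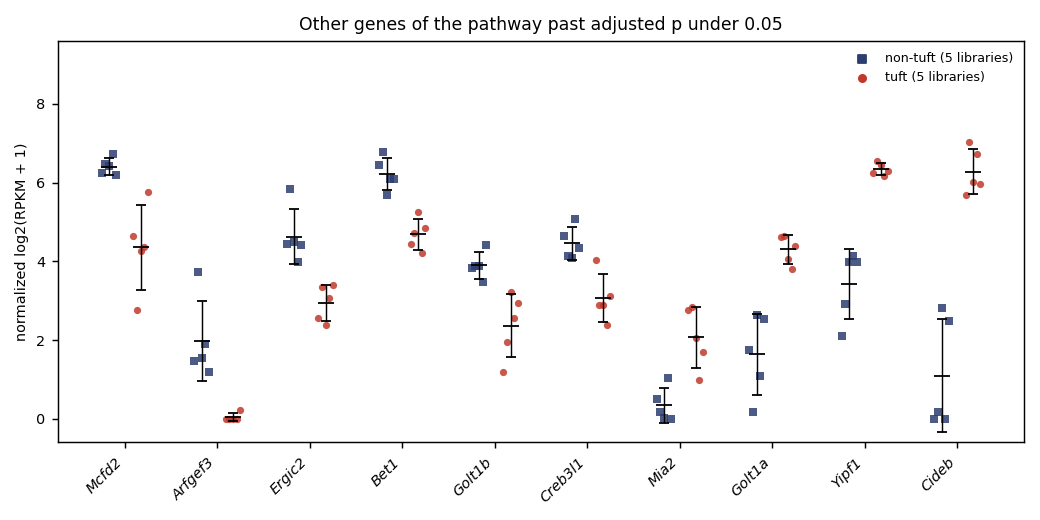
Normalized log2(RPKM + 1) of the 10 other pathway genes past an adjusted p under 0.05 in each library, ordered by log2 fold change, with non-tuft libraries as squares, tuft libraries as circles, and the mean and SD of 5 libraries as bars. The 6 genes from Mcfd2 to Creb3l1 are lower and the 4 genes from Mia2 to Cideb higher in tuft cells; with ribosomal centring the 6 lower genes no longer pass the threshold.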

How the data were processed

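Smart-Seq2 libraries of 5 tuft and 5 non-tuft samples were grouped by their titles. The authors aligned single-end reads of 50 bp (mm9, Hisat2), obtained RPKM from Stringtie and Ballgown, removed genes of low variance, and deposited log2 values after quantile normalization. A lowest value of 0 corresponds to 1 added before the log. Strand was not recorded. The deposited table also holds the authors' own comparison, as a fold ratio, a p-value and a q-value, and none of these was used.

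The fit over all 12160 listed genes used limma (version 3.58.1, R 4.3.3; lmFit, then eBayes), without covariates, followed by Benjamini-Hochberg adjustment, and was tested on simulated data. Paralog differences were taken between log2(RPKM + 1) values and compared by exact permutation (numpy 2.4.6, Python 3.11.15). Positions were found for 70 members in the NCBIM37 annotation.

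The members and gene lists were chosen with earlier results of these data known. Values in every library are given for members past an adjusted p under 0.05. Members whose groups did not overlap, the most abundant member of a class, members of the pairs with the smallest p, and members listed at 0 in a whole group were also named. Other members given with their own values, such as Copb2, Tmed2, Kdelr3 and the Trappc genes, were chosen after their values were seen.

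Both populations were sorted from 5 mice, so the 10 libraries share mice, but no source used here says that equal replicate numbers mark the same mouse. The fit therefore had no block, and values with the replicate number as a block are given where they change which side of the threshold a gene is on. Alternatives were the replicate block, 0.1 or 10 added to RPKM, a minimum mean log2 of 2, ribosomal protein centring, eBayes with trend and robust settings, treat against a fold of 2, other thresholds, each library left out and, chosen after seeing the data, the lowest value of every library set to 0.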

Additional observations from a re-analysis of the deposited data

Results flagged for a closer look

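Of 41 groups of 5 libraries examined for the named members and the library medians, 3 held a library whose gap to its nearest neighbour was more than 0.71 of the group's range, and chance alone gives about 1 such group in 20. Gorasp1 was listed at 0 in tuft library 4, with the other tuft libraries between 2.18 and 2.63. Trappc2 was at 1.17 in tuft library 1, with the others between 3.82 and 4.71. Trappc6a was at 1.22 in non-tuft library 1, with the others between 2.50 and 2.95.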

How the results depend on the processing

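Copz2, Lman1, Tmed6, Sec24d and Sec16b kept an adjusted p under 0.05 in limma under every alternative except treat against a fold of 2, which only Copz2 passed. Members past an adjusted p numbered 15 with trend and robust eBayes, 13 with 10 added to RPKM, 14 with ribosomal centring and 1 with treat. Members called numbered 1 with 10 added and 1 with treat, all genes called 278 and 420, and other pathway genes called 2 and 2, or 10 at a fold over 2. The members' median log2 fold change was 0.56 with ribosomal centring. With single libraries left out, the counts ran from 841 to 1010 genes called, 5 to 7 members called, 5 to 8 members past an adjusted p, 10 to 16 without overlap (16 without non-tuft library 2) and 3 to 6 other pathway genes called, and the median from -0.33 to -0.16.

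With the replicate number as a block, 7 members were lower and 1 higher at an adjusted p under 0.05, and 5 were called. Tmed11, Mia2, Golt1b and Creb3l1 then missed the adjusted threshold, and Tmed2 and Trappc2l passed it. The deviations of same-numbered libraries correlated at 0.124, 0.0792, 0.115, 0.0619 and 0.240, and not every library correlated best with its own number. Under the block by sign flips 0 paralog pairs passed, since 5 pairs of libraries allow no p below 0.0625. With a library left out 0 pairs passed in 9 cases and 4 without non-tuft library 2, at adjusted p from 0.0582 where none passed. With 10 added to RPKM 4 pairs passed, without Gorasp1 to Gorasp2.

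Depth is unknown, so a value of 0 cannot be told apart from a low level, and folds on the log2(RPKM + 1) scale understate the change of low genes.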
